A study of Rattus norvegicus with 12 samples.

Results

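Catecholamines are made from tyrosine, packed into vesicles and taken up again by a short set of proteins, and 9 genes of that set were followed in PC12 cells, a line from a rat adrenal medulla tumour that makes and stores dopamine and noradrenaline. The 9 genes were chosen by name as *Th*, *Ddc*, *Dbh*, *Pnmt*, *Gch1*, *Slc18a1*, *Slc18a2*, *Slc6a2* and *Maoa*. The array held 10 probes for 8 of them, among 41012 probes under 33212 names in all, and *Pnmt* was not analysed here. The cells received PACAP38, a neuropeptide that acts through receptors coupled to cyclic AMP, at 10-7 M, or served as the control of the same time, for 5, 10, 15, 30, 60 or 120 min. RNA of each group (n = 6) had been pooled, and the PACAP38 pool and the control pool of a time were hybridised together to 2 arrays with Cy3 and Cy5 exchanged. Each time point is therefore 1 replicate, the arrays of a time show technical error only, and no test at a single time was possible. PC12 is 1 tumour line, so the pools are cultures of that line and not animals.

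Tyrosine hydroxylase (*Th*) makes L-DOPA and sets the pace of the pathway, and it needs the cofactor tetrahydrobiopterin, whose synthesis starts with GTP cyclohydrolase 1 (*Gch1*). Aromatic L-amino acid decarboxylase (*Ddc*) then gives dopamine, and dopamine beta-hydroxylase (*Dbh*) gives noradrenaline inside the vesicle. The vesicular monoamine transporters VMAT1 (*Slc18a1*) and VMAT2 (*Slc18a2*) fill the vesicle, the noradrenaline transporter (*Slc6a2*) takes released amine back, and monoamine oxidase A (*Maoa*) degrades it.

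The oligos that read the 3 genes with the highest ratios, and the pair that reads *Maoa*, are given from the scanner files with their place on rat build rn4. They show which stretch of each mRNA a value stands for.
Gch1, chr15:23025806-23026837, minus strand: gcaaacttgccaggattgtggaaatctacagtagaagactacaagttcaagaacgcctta
Th, chr1:203165487-203165546, minus strand: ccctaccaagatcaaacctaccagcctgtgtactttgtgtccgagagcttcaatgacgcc
Dbh, chr3:6068194-6068253, plus strand: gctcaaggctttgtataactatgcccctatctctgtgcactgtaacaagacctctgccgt
Maoa, brighter probe, chrX:17683676-17686967, minus strand: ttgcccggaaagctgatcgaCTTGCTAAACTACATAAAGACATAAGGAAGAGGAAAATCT
Maoa, dimmer probe, chrX:17683656-17686947, minus strand: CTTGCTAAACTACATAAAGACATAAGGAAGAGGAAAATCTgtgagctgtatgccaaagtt
The *Gch1* oligo spans 1032 bases of the genome and each *Maoa* oligo 3292 bases, so these oligos of 60 bases cross an intron. Capitals mark the 40 bases that the *Maoa* oligos share, which makes their values readings of nearly one site. The *Th* oligo was printed in 10 spots per array.

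Promoters of 6 of the 9 genes were matched in RefSeq (rat build GRCr8), in 8 windows. The 250 bases before the start are given for the genes whose ratios were highest and for *Slc18a2*, because the palindromic cyclic AMP response element, TGACGTCA, is bound by factors that cyclic AMP activates. Capitals mark that element and its shorter core TGACG, on either strand.
Th, chr1:207508219-207508468, minus strand: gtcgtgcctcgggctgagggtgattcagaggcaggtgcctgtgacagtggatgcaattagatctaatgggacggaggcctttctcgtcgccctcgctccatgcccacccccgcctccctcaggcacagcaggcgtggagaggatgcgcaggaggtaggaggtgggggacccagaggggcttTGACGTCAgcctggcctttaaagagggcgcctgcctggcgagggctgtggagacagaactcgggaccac
Slc18a2, chr1:268399771-268400020, plus strand: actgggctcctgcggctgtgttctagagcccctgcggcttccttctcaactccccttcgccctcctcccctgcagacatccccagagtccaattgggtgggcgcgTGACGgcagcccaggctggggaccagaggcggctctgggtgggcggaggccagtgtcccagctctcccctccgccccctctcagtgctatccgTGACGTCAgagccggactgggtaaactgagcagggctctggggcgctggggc
Gch1, chr15:22917413-22917662, minus strand: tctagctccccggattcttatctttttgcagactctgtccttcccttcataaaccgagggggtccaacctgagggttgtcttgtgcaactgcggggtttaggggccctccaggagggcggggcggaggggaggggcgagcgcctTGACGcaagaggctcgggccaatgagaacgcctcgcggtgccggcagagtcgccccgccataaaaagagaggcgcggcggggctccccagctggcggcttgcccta
Dbh, chr3:30886078-30886327, plus strand: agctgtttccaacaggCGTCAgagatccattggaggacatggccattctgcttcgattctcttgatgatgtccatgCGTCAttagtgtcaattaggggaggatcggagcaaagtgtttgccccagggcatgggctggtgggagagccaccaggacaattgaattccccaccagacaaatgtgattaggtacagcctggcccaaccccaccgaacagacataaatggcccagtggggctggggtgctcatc
The full element lay 69 to 62 bases before the start in *Th* and 52 to 45 bases before it in *Slc18a2*, and 1.59% of all 33469 promoter windows of this length hold it. A core without the full element lay 106 to 102 bases before the start in *Gch1*, and *Dbh* had 2 such cores. The core occurs in 18.2% of all windows and overlaps the full element. CCAAT, found in 34.0% of windows, was present in *Gch1* (88 to 84 bases before the start), *Dbh*, *Slc18a2* and 1 window of *Ddc*. An AP-1 match (TGANTCA, in 6.34% of windows) and an Egr match (GCGNGGGCG, in 4.29%) were found in *Th*. Another window of *Ddc* held an AP-1 match, an NBRE match (AAAGGTCA, in 1.24% of windows) and TATAAA (in 12.9%), the latter pair overlapping. The window of *Maoa* held none of these letters. The matches are descriptions of letters and not of binding.

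In the control channel, all 8 genes were read above background. The intensity scale is that of the processed channel signals after scaling between arrays, and since probes differ in brightness it is used only to compare pools for 1 probe. Over the 6 control pools the highest value was 2.29 times the lowest for *Maoa*, the widest spread of the 8 genes also with each channel scaled to its 75th percentile. *Th* in the control pools lay between 53959 and 72592, with a median of 63755. *Dbh* lay between 352 and 431, and *Gch1* between 1766 and 2677. The control pools of *Ddc* (70261 to 77528), *Slc18a1* (35481 to 41602) and *Slc18a2* (399 to 480) varied by 1.20 times at most. *Slc6a2* was dim, between 34.7 and 46.9, and its control channel was well above background on 1 of 2 arrays at 5 min. The second *Slc18a2* probe was well above background in neither RNA on any array and has no fold.

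*Gch1* had its highest folds at 60 and 120 min, and was past a limit of 2 on both arrays at 120 min. From 5 to 120 min, in the order of the times, its intensity in the control pools was 2101, 2332, 1999, 1766, 2677 and 2487. In the PACAP38 pools it was 2036, 2451, 2106, 2007, 5417 and 9420. The PACAP38 pools of 60 and 120 min stood above all 6 control pools, and the earlier PACAP38 pools lay inside the control range. At 120 min 28.3% of all measured probes stood above all control pools, and the share at 60 min is not given. Such a position is not particular to *Gch1*, since 3 PACAP38 pools of *Slc18a1* also stood above all 6 control pools. The fold over the control of the same time was 0.969, 1.05, 1.05, 1.14, 2.02 and 3.79 in that order. The spot on 1 array at 10 min carried an outlier flag, so that value rests on the other array.

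A probe was counted as higher where its fold was at least 2 with a spot p-value below 0.01 on both arrays. *Gch1* was counted at 120 min, with 3.52 on the array with PACAP38 in Cy5 and 4.08 on the array with it in Cy3. At 60 min its folds were 1.89 and 2.17, so it missed the limit on 1 array. Of the 8 genes 0 were counted higher at 60 min, when 1.79% of 19690 measured probes were, and 1 at 120 min, when 4.24% of 18586 were. At a limit of 1.5, 1 gene (*Gch1*) was counted at 60 min beside 2.92% of probes, and 3 genes (*Gch1*, *Th* and *Dbh*) at 120 min beside 6.63%. No gene of the set was counted lower at 60 min, when 0.782% of probes were at 2-fold and 2.31% at 1.5-fold, or at 120 min, when 3.37% and 8.5% were. With 8 genes, a count of 0 is near those shares.

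**Figure D1:**
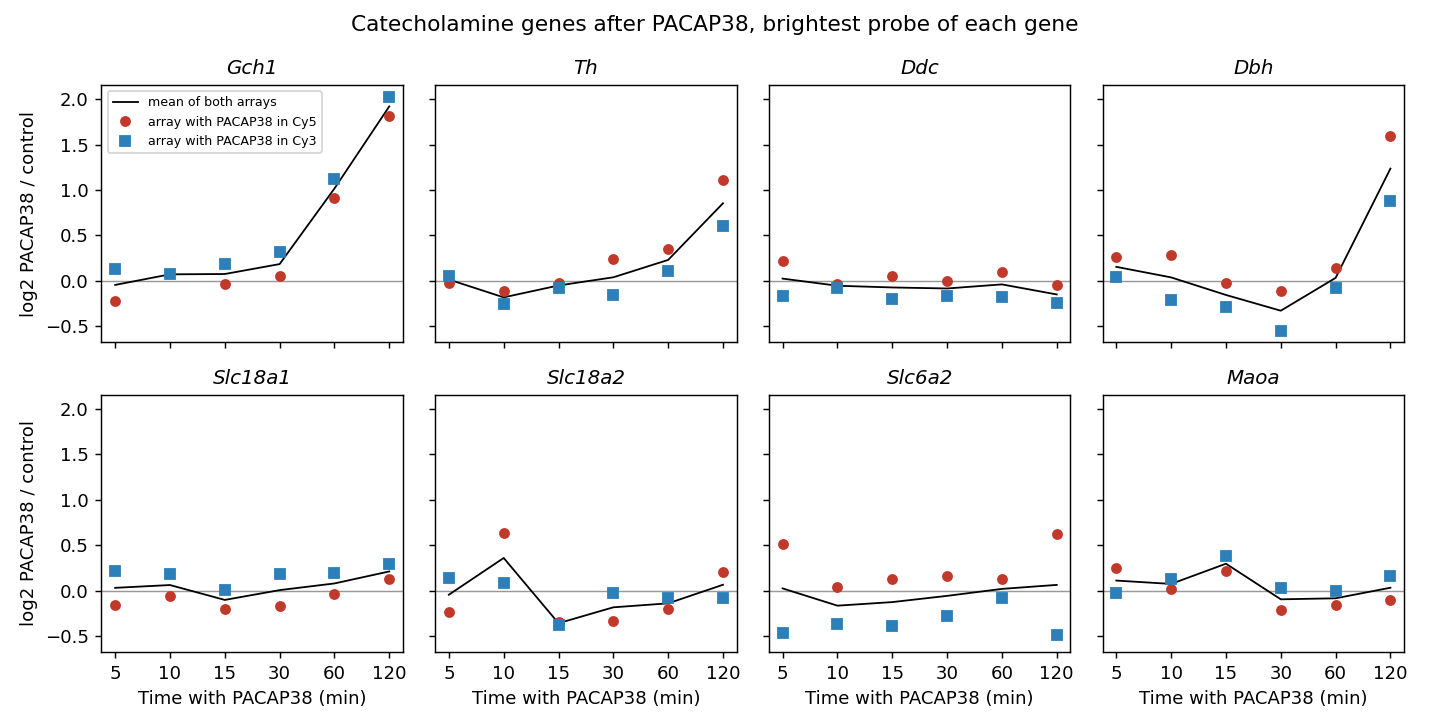
The log2 ratio of PACAP38 to control (y axis) is plotted at each time (x axis, equal steps for 5 to 120 min) for the brightest probe of 8 genes. Circles and squares are the arrays with PACAP38 in Cy5 and in Cy3, and the line is their mean. The mean of both arrays at 120 min was 1.92 for *Gch1*, 1.24 for *Dbh* and 0.85 for *Th*, and the means of the other 5 lay between -0.36 and 0.36 at all times.

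*Dbh* had its highest fold at 120 min. Its control intensities were 356, 352, 370, 431, 360 and 383 from 5 to 120 min. Its PACAP38 intensities were 396, 361, 332, 343, 369 and 903. Only the pool of 120 min exceeded every control pool, while those of 15 and 30 min lay below all of them. The share of all probes below all control pools is not given. In *Ddc* and in *Slc18a2*, 1 PACAP38 pool each also lay below all control pools. The folds on the 2 arrays at 120 min were 3.03 and 1.83, with a mean of 2.36, so that *Dbh* met the limit of 2 on 1 array. At 30 min the mean fold was 0.796, with 0.928 on one array and 0.683 on the other. Its array readings differed by more than the mean log2 ratio at all times but 120 min.

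*Th* was past the limit of 1.5 on both arrays at 120 min. Its control intensities were 57546, 72592, 65392, 66187, 62159 and 53959 from 5 to 120 min, and its PACAP38 intensities were 58121, 63982, 63115, 67999, 72924 and 97561. The control pool of 120 min was the lowest of the 6 and the PACAP38 pool of that time the highest. Against the highest control pool, the PACAP38 pool of 120 min was 1.34 times as bright. The mean fold was 1.17 at 60 min and 1.81 at 120 min. The 2 arrays of 120 min gave 2.15 and 1.52. At 120 min the log2 ratio had an SD of 0.053 over 10 *Th* spots on one array and of 0.038 over 9 spots on the other, while the arrays gave 1.11 and 0.60, so the difference between dye orientations was larger than the spread between spots.

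**Figure D2:**
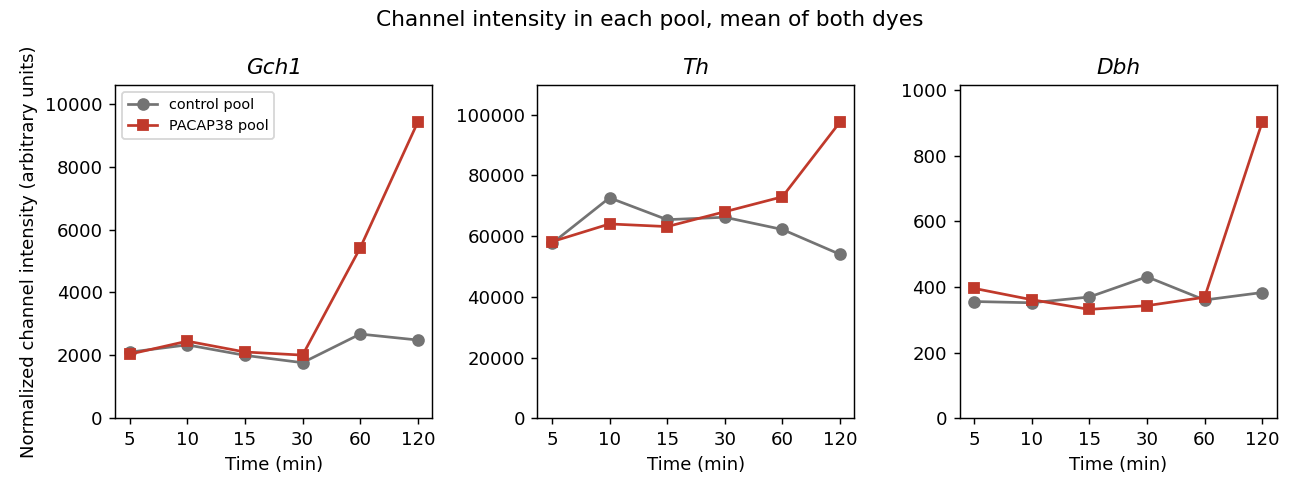
Normalized channel intensity (y axis, arbitrary units from 0) is shown for *Gch1*, *Th* and *Dbh* at each time (x axis, min). Grey circles are control pools and red squares PACAP38 pools, each the mean of both dyes except *Gch1* at 10 min, which rests on 1 array. For *Gch1* the PACAP38 pool of 120 min, 9420, lies above the highest control pool, 2677.

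At 120 min the PACAP38 pool exceeded all 6 control pools in 4 of the 8 genes (*Gch1*, *Dbh*, *Th* and *Maoa*), and in 28.3% of all measured probes. For *Maoa* the excess was 1.02 times. The median log2 ratio of the 8 genes at 120 min was 0.14, against -0.03 over all measured probes, of which the central 95% lay between -1.30 and 1.77. *Gch1* was outside that range and the other 7 were inside it. At 60 min the range was -0.78 to 0.98, and *Gch1* (1.02) was again the one gene outside it.

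The other 5 genes showed folds between 0.780 and 1.28 at every time. *Ddc* lay between 0.901 and 1.02, *Slc18a1* between 0.931 and 1.16, and *Slc18a2* between 0.780 and 1.28. None of the 5 was counted at 60 or 120 min. The highest *Slc18a2* value, at 10 min, came from folds of 1.56 and 1.06 on the 2 arrays. *Slc6a2* had a fold above 1 on all 6 arrays with PACAP38 in Cy5 and below 1 on all 6 with it in Cy3, so its readings moved with the dye. For *Slc18a1* the array with PACAP38 in Cy3 gave a fold above 1 at all 6 times and the other array a fold below 1 at 5. The *Maoa* probes gave 1.02 and 1.16 at 120 min.

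The relation to time was tested with limma across 20265 probes, as the slope of the log2 ratio on log2 time over the 6 time points. The slope was 0.41 ± 0.084 per doubling of time (SE, n = 6 time points) for *Gch1* (adjusted p = 0.0743, limma), 0.18 ± 0.056 for *Th* (adjusted p = 0.114) and 0.18 ± 0.11 for *Dbh* (adjusted p = 0.34). Without 120 min the slope was 0.26 for *Gch1*, 0.075 for *Th* and -0.063 for *Dbh*. None of the 8 genes passed with all times, where 0.725% of probes did, and the lowest adjusted p among the other 5 was 0.452 (*Slc18a1*). With time in minutes, *Gch1* (adjusted p = 0.00238, limma) and *Th* (adjusted p = 0.00611) passed, as did 26.3% of probes, and *Dbh* did not (adjusted p = 0.0507). Time and slide overlap, because slides held 5 and 10, 15 and 30, or 60 and 120 min. With the slide as a block, the slope on log2 time was 0.38 ± 0.20 (SE) for *Gch1* (adjusted p = 0.895, limma). It was 0.17 ± 0.19 for *Th* (adjusted p = 0.903, limma) and 0.30 ± 0.32 for *Dbh* (adjusted p = 0.902, limma). Within the last slide the log2 ratio at 120 min was above that at 60 min by 0.90 for *Gch1*, 0.62 for *Th* and 1.20 for *Dbh*. From 5 to 10 min on the first slide the difference was 0.12 for *Gch1*, -0.20 for *Th* and -0.12 for *Dbh*, and from 15 to 30 min on the second it was 0.11, 0.09 and -0.17. The mean ratio over all times differed from 0 for 0 of 20265 probes (limma, 0% called, 1851 at an unadjusted p below 0.05) and for none of the genes.

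**Figure D3:**
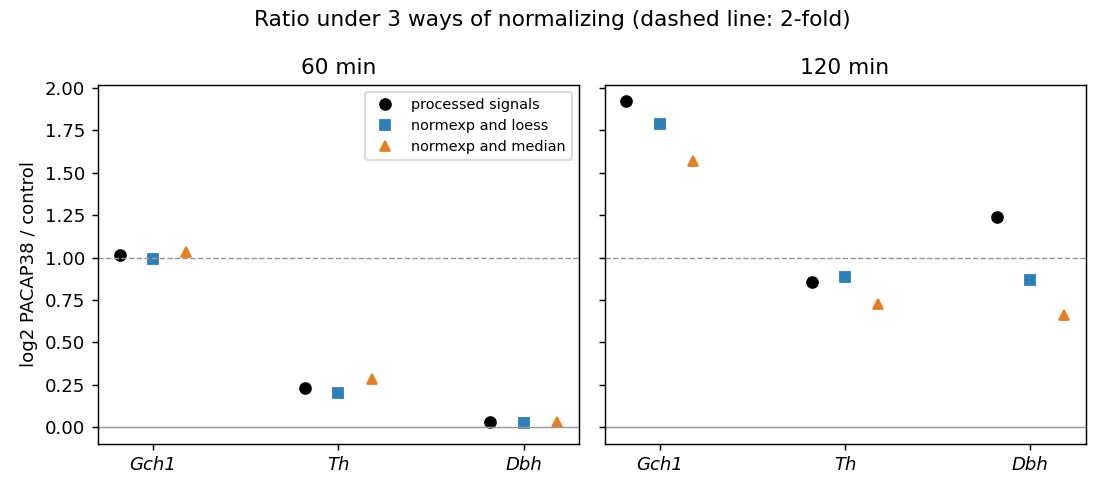
The log2 ratio of PACAP38 to control (y axis) at 60 and 120 min is shown for *Gch1*, *Th* and *Dbh* from the processed signals (circles), normexp with loess (squares) and normexp with median centring (triangles). The dashed line is a fold of 2. *Gch1* at 120 min stays above it, and *Dbh* falls below it with either normexp setting.

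With background corrected by normexp, *Gch1* at 120 min had a fold of 3.45 with loess and 2.97 with median centring. *Th* had 1.85 and 1.66. *Dbh* had 1.82 and 1.58, below the 2.36 of the processed signals, so the order of *Th* and *Dbh* turned with either normexp setting.

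Among 32 related genes, 30 had a probe and 16 were measured at 120 min, and none was counted at 120 min. Of all measured probes 4.24% were higher and 3.37% lower then at 2-fold, and 6.63% and 8.5% at 1.5-fold. Of the tetrahydrobiopterin list, 5 of 7 genes were measured at 120 min. *Gchfr*, whose protein restrains GTP cyclohydrolase 1, had the largest ratio of that list, with folds of 1.45 and 1.43 on the arrays (adjusted p = 0.0912 for the slope, limma). Of the breakdown and conjugation list, 8 of 10 were measured, and monoamine oxidase B (*Maob*) had a mean fold of 1.33. Of the other amine transporters 2 of 7 were measured. The vesicular acetylcholine transporter *Slc18a3* had 0.758 and 0.832 on the arrays. The dopamine and serotonin transporters *Slc6a3* and *Slc6a4* were well above background on no array. Of the ascorbate list 1 of 3 was measured, *Cyb561*, which supplies electrons for *Dbh*, with a mean fold of 1.21. None of the 5 amine autoreceptor genes was measured at 120 min. The median fold over the 16 genes was 1.11.

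**Figure D4:**
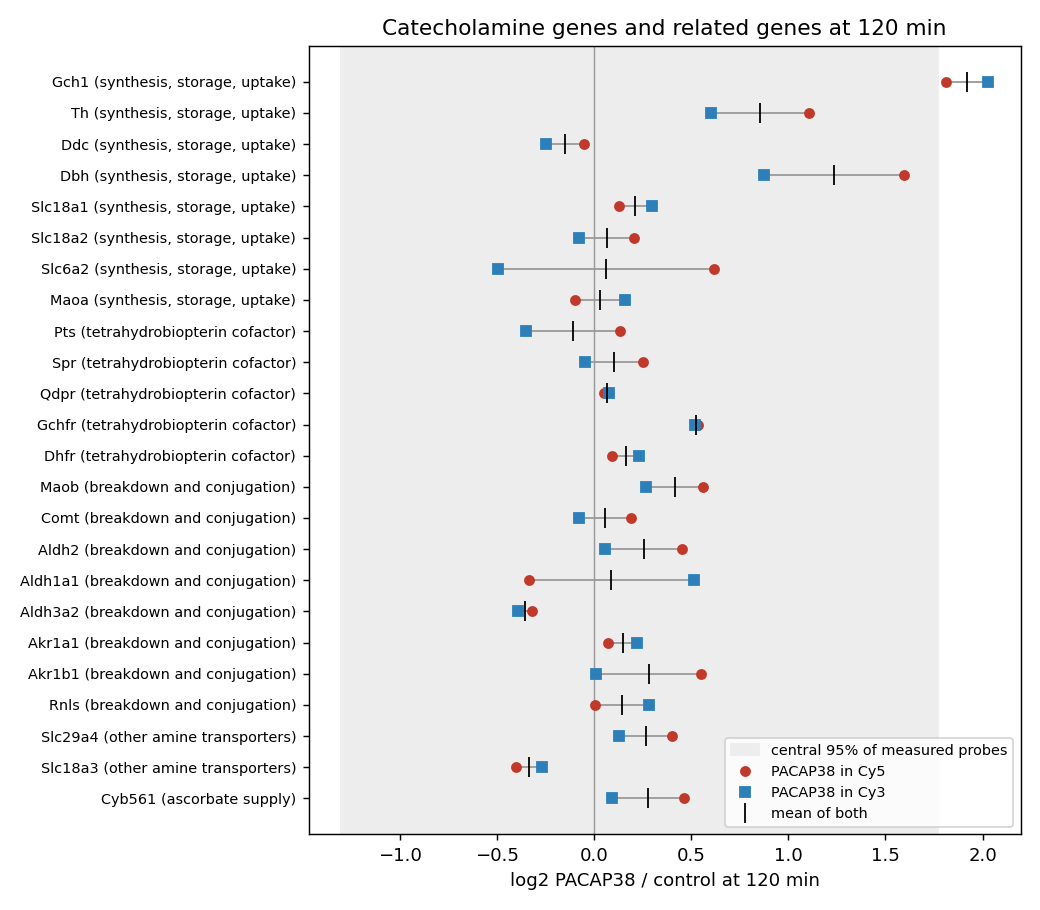
The log2 ratio at 120 min (x axis) is drawn for the 8 catecholamine genes and the 16 related genes measured then (y axis, list in brackets). Circles and squares are the arrays with PACAP38 in Cy5 and Cy3, ticks their mean, and the grey band the central 95% of all measured probes. *Gch1* lies right of the band, and all 16 related genes lie inside it.

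The genes whose course was most like that of each of the 3 were found among 7967 named genes read in both RNAs on all arrays, by the root mean square difference of the 6 log2 ratios. *Tle3*, a transcriptional corepressor, was nearest to *Gch1* (difference 0.089), with folds of 2.17 at 60 min and 3.90 at 120 min. *Dnajb9* (0.091) and *Rnf139* (0.106) followed. *Csnk1d* (0.049), *Jup* (0.051) and *Ninj1* (0.057) were nearest to *Th*. *Pde10a* (0.11), *Atp11a* (0.12) and *Prune2* (0.13) were nearest to *Dbh*.

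The labelled cell type was checked with markers. Of 6 chromaffin markers with a probe, *Th* and *Dbh* left aside, 5 exceeded background clearly in the control RNA on all 12 arrays. All 6 adrenal cortex markers and both endothelial markers were well above background in no control channel. Of the fibroblast markers *Col1a1* and *Pdgfra* were read in the control RNA on all 12 arrays, *Col1a2* on 11 and *Dcn* on 5. At 120 min *Pdgfra* had folds of 0.400 and 0.523 on the arrays (mean 0.457), *Col1a1* had 1.32 and 1.01, and *Col1a2* had 0.427 and 0.994. Their part in the values of the catecholamine genes was not tested. The immediate early genes *Fos*, *Egr1*, *Nr4a1* and *Junb* were counted higher at every time from 10 to 120 min. The spots well above background were between 39.8 and 48.9% per array in the PACAP38 channel and between 38.4 and 49.6% in the control channel. In pooled extracts, a change in the number of cells of a type and a change in RNA per cell cannot be told apart.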

How the data were processed

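RNA of PC12 cells was hybridised to 12 Agilent 4x44K arrays. The authors made the processed intensity values with Agilent Feature Extraction (version 11.0.1.1 per the labels, 12.0.3.1 per the file headers), with background subtraction and LOWESS dye normalization. The deposited p-value of a spot belongs to its log ratio, and the deposited log10 ratios are of Cy5 over Cy3, not turned for the dye exchange. The deposited flags mark control spots, outliers and spots well above background.

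The ratio of PACAP38 over control was taken from processed intensities, turned by dye, without control and outlier spots, and averaged over the spots of a probe. The brightest probe stands for a gene. A probe was measured at a time if at least 1 channel was well above background on both arrays. Channel levels were scaled between arrays by Aquantile. Slopes and means over time points were fitted with limma in R and adjusted by Benjamini-Hochberg. The fits were also run on simulated data, with effects larger than those of the genes followed, independent noise and no slide effect. That run therefore does not cover effects of the size seen here or the overlap of time and slide. Alternatives were normexp (offset 50) with loess or median centring, the deposited table, other filters and limits, single dyes and slide blocks. Genes outside the set were named if counted at any time, or else as the largest ratio of their list at 120 min that both arrays shared in sign, and as the 3 nearest courses. *Slc6a3*, *Slc6a4* and the single markers were named outside this rule, with their values seen. The genes, lists and tests were chosen with earlier results of these data known. The number of arrays limits precision. The limma p-values cover the spread of these pools around the fitted line or mean, together with any departure of the course from that shape. The spot p-values concern spots on 1 array and cover no spread between pools. Columns of the authors' own comparisons were not used beyond the spot p-values and the table of ratios. The result of 1 list of cell type markers is not reported here.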

Additional observations from a re-analysis of the deposited data

How the results depend on the processing

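The count of genes was 0 at 5, 10, 15 and 30 min, at 2-fold and under the alternatives run. At 2-fold on both arrays, between 0 and 0.594% of measured probes were higher at these times and between 0 and 0.245% lower. At 1.5-fold, 0.973% were higher and 0.478% lower at 30 min. Shares for single arrays and for normexp are not given for these times, and 0 of 8 says nothing about the set. At 60 min the count went from 0 to 1 with a limit of 1.5. It also went to 1 with only the array with PACAP38 in Cy3 (6.38% of probes on that array, higher and lower together). At 120 min the count went from 1 to 3 with a limit of 1.5. It also went to 3 with only the array with PACAP38 in Cy5 (13.4% of probes, higher and lower together). For the slope on log2 time, 0 genes passed, 2 (*Gch1* and *Th*) with time in minutes. The planned filter of both channels well above background on all 12 arrays drops *Gch1* through its flagged spot and calls 0 genes. A filter that ignores flagged spots, chosen after seeing that, calls 1, *Gch1* (adjusted p = 0.0432, limma), and 6.99% of 14000 probes. For the mean over time, 1 gene (*Slc6a2*) passed with only the arrays with PACAP38 in Cy3, as did 17.5% of 20264 probes. The *Dbh* slope turned to -0.063 and its mean to -0.052 without 120 min, and its mean to -0.035 with only the Cy3 arrays, so both rest on 120 min and the mean also on the dye. When 1 time point was left out the *Dbh* slope lay between -0.063 and 0.30, and the *Gch1* slope between 0.26 and 0.52 and the *Th* slope between 0.075 and 0.26, with the lowest values without 120 min.

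Over all probes, 147 slopes passed, 27 with normexp and loess, 1 with normexp and median centring, 976 with the planned filter, 979 with the added one, 0 with no filter, 5337 with time in minutes, 0 with the slide block, 3 and 29 with single dyes, and between 0 and 153 when 1 time point was left out (0 without 10, 15, 30 or 120 min, 1 without 60 min). Means passed for 0 probes, for 2310 and 3538 with single dyes and for 15 without 5 min. Causes were not tested. Each ratio pairs the PACAP38 pool with the control pool of its time, so the mean over time points is a paired test, and the labels give no replicate numbers for a further block.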
